A study of Homo sapiens with 10 samples.

Results

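The regions described here lost their ATAC-seq peak calls when GATA6 was degraded with auxin, had them back after the auxin was washed out, and were also called in cells with a lasting GATA6 knockout. They were 377 of the 120452 open regions of a DLD-1 degron line (0.313%). DLD-1 is an established human colorectal adenocarcinoma line. ATAC-seq inserts sequencing adapters into accessible DNA with a transposase, so a peak marks chromatin that proteins can reach.

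The study held 5 groups of 2 libraries each. The degron line carried GATA6 fused to an auxin-inducible degron (genotype GATA6-AID-IAA7), a tag that sends the protein to destruction while auxin is present. Its groups were AID_ctrl (titled control, time 0 h, with auxin as the labelled treatment, read as untreated), AID_aux (12 h, with 500 µM IAA, the auxin, in the labelled protocol) and AID_wash (auxin removed again, its time given as 1 without a unit). WT cells carried no GATA6 edit, and KO cells carried a GATA6 knockout made with CRISPR/Cas9. The labels speak of positive clones for the degron line without saying how many were used, and they leave unsaid whether the knockout is 1 clone and whether the replicates came from different cultures. Differences between replicates therefore measure the spread between these libraries, which may be technical. Peak calls measure neither the GATA6 protein nor the edit, so they do not check the labels.

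Overlapping or touching peaks of the 6 degron lists were joined into regions, and a library called a region where 1 of its peaks overlapped it by at least 1 bp. A member was called by both AID_ctrl libraries, by neither AID_aux library, by both AID_wash libraries and by at least 1 KO library. Members were thus chosen by the peak calls of these 8 libraries, which are described and not tested. The WT lists, the position of the regions and their sequence were not used in the choice. No read counts were used, so depth is unknown, and a region without a call may be open below the calling threshold.

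GATA6 is a zinc-finger transcription factor of the endoderm that binds the short DNA motif GATA, acts at enhancers and promoters of the gut epithelium, and can bind closed chromatin as a pioneer factor. An open region that needs a factor continuously closes when the factor is lost, while a region held open by several factors may not. In a degron the protein disappears within hours, whereas a knockout line has grown without it for many divisions.

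At 5 of the 357 members on chromosomes covered by the RefSeq promoter table (1.40%, Wilson 95% interval 0.60 to 3.24), the region overlapped a promoter window, which spans 250 bases before to 50 bases after a start site. Among all degron regions the share was 10.4%, and among regions called by all 6 degron libraries 18.3%. It was 1.23% of regions that met the rule except for having no KO call. Of all regions called by both AID_ctrl and neither AID_aux library it was 1.61%. The low share was thus not particular to the members. The other 20 members lie on a chromosome for which the table was not used. The promoters are shown because they are the members whose sequence could be read and whose gene is known. They belong to LGALS4, which encodes galectin-4, a sugar-binding protein of the gut epithelium, to RETNLB, a protein secreted by goblet cells, to TINAGL1, a matrix protein, to PHF19, a subunit of the Polycomb repressive complex PRC2, and to LOC124902923. The TINAGL1 region also overlapped the window of LOC105378626, which runs in the opposite direction and shares most of its bases.

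Both strands of each window were searched for the motif in 4 spellings, AGATAA or AGATAG and likewise TGATAA or TGATAG, the core that GATA factors bind, and matches are in capitals. The sequences are from RefSeq (GRCh38.p14), given 5′ to 3′ on the strand of the gene.
LGALS4 (chr19:38812896-38813195, minus strand): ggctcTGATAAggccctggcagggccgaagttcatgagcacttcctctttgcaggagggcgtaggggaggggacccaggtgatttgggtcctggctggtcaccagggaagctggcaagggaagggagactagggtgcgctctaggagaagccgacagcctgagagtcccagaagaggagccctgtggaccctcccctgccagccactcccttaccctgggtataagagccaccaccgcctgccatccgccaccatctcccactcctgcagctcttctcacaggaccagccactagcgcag
RETNLB (chr3:108757361-108757660, minus strand): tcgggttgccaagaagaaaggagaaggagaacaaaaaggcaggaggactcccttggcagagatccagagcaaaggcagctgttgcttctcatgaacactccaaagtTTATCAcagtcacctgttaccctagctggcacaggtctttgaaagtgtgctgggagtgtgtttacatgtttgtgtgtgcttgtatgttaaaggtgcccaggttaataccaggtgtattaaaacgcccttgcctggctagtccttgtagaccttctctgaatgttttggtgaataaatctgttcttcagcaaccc
TINAGL1 (chr1:31577895-31578194, plus strand): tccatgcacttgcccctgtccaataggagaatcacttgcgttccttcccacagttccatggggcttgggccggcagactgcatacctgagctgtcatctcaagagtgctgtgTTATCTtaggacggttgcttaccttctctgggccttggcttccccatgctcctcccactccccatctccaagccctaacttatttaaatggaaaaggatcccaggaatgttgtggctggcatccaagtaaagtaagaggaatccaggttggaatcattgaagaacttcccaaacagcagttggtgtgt
LOC124902923 (chr12:46494421-46494720, minus strand): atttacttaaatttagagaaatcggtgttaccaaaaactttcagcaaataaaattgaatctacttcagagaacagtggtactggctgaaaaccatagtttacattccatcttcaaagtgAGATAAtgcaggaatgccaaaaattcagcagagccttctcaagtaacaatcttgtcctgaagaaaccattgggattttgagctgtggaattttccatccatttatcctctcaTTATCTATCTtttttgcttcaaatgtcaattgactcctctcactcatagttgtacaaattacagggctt
PHF19 (chr9:120877139-120877438, minus strand): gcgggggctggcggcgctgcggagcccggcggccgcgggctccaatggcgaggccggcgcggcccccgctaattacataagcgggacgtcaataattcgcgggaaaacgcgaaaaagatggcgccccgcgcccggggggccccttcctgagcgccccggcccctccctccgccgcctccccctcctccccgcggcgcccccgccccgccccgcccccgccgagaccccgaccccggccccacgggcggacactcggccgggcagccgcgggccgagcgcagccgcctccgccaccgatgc
The motif stood in the windows of 4 of the 5 members. It was absent from the PHF19 window, the one richest in G and C (79.7% against 35.0% to 62.7% in the others). In LGALS4 the match began 245 bases before the start site, in RETNLB 144 and in TINAGL1 138. LOC124902923 had 3 matches, 131, 19 and 15 bases before its start site, of which the last 2 overlap by 2 bases. Each of these matches lay inside the called region. Of all 34961 promoter windows 24.9% held a match, and of the 15526 that all 6 degron libraries called 13.9% did. With only 5 members, a difference from these shares was not tested. The share in windows at other regions that lost their calls with auxin is not given, so no enrichment in members can be read from this. A match describes the letters and does not show that GATA6 binds there.

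The LGALS4 region (chromosome 19, 38812679 to 38813664) covers the start of the gene. Its best peak had a fold enrichment, which is the authors' value within each list, of 5.30 and 7.07 in the AID_ctrl lists and of 7.38 and 4.52 in the AID_wash lists. No AID_aux peak lay within 12695 bp. Both WT libraries and KO replicate 2 called it, and KO replicate 1 did not. The KO call at this promoter therefore rested on 1 library.

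The RETNLB region (chromosome 3, 108757035 to 108758208) stood more alone, with the nearest AID_aux peak 46891 bp away. Its fold enrichment was 5.82 and 5.17 in AID_ctrl and 5.05 and 5.45 in AID_wash. Both KO and both WT libraries called it, so all libraries of the series except the 2 with auxin did. The TINAGL1 region (chromosome 1, 31577677 to 31578067) was weaker, at 2.30 and 2.46 in AID_ctrl and 2.11 and 2.53 in AID_wash. Both KO libraries and WT replicate 1 called it, and an AID_aux peak began 291 bp away. The PHF19 region (chromosome 9, 120877346 to 120877924) had 2.31 and 2.62, then 2.32 and 2.29, was called by replicate 1 of KO and of WT, and had an AID_aux peak 160 bp away. LGALS4 and RETNLB were thus isolated open sites, whereas the TINAGL1 and PHF19 regions flanked chromatin that stayed called with auxin.

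The rule narrowed the regions in steps. Both AID_ctrl libraries and neither AID_aux library called 2729 regions, 2.27% of all. Of these, 885 (32.4%) were called by both AID_wash libraries, where 84.7% of all regions called in both AID_ctrl libraries were. This contrast is not matched for strength. The auxin losses had median AID_ctrl percentiles of 24.7 and 21.4, against 66.9 and 65.7 for regions called in both AID_ctrl libraries. These 885 reversible losses were 0.735% of all regions. At least 1 KO library called 377 of the 885 (42.6%), where at least 1 KO library called 82.6% of all regions and 98.4% of those called by all 6 degron libraries. Of the 873 auxin losses that neither AID_wash library called, 445 (51.0%) had a KO call. These 873 were weaker, with median AID_ctrl percentiles of 15.1 and 13.0 against 40.2 and 37.4 in the reversible losses. Their share is therefore not matched for strength either. The reversible losses were thus called in KO less often than open regions in general under this rule. The share with a KO call was above 50% under 4 other settings, at 57.7% with peaks of −log10 p of at least 10, 52.3% with degron lists of equal length, 68.9% without AID_aux replicate 1 and 53.9% without AID_aux replicate 2. The KO share over all regions was not computed under these 4 settings. Both KO libraries called 74.3% of all regions and 243 of the 885 reversible losses (27.5%).

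Whether a member counts as open in the knockout rested on 1 library in 134 of 377 cases. KO replicate 1 called 356 members (94.4%) and KO replicate 2 called 264 (70.0%), with 113 called by replicate 1 alone and 21 by replicate 2 alone. At regions called by all 6 degron libraries the KO replicates called 98.1% and 97.0%. With KO replicate 2 as the only KO library there were 264 members, and with replicate 1 there were 356. Leaving out a degron library loosened the rule and raised the count by over 1.5 times in 3 cases, to 1867 without AID_aux replicate 1, 716 without AID_aux replicate 2 and 804 without AID_wash replicate 1, which has the shortest degron list.

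By position, few members lay just inside the rule, but by peak strength many did. The smallest overlap with a KO window was 4 bp, 4 members overlapped by less than 100 bp, and 341 by at least 250 bp of windows that are 500 bp long. Just outside, the nearest KO window to a reversible loss without a KO call was 13 bp away, and 49 of the 508 had one within 500 bp. Between a member and the nearest AID_aux peak the median gap was 4239 bp, with 35 members within 500 bp and the closest, inside SOS1, at 101 bp. Another 1829 regions met every condition except that 1 AID_aux library called them, with a median −log10 p of 9.82 there and values down to 5.01. The lowest value deposited is about 5.0. The −log10 p of members reached down to 5.02 in each AID_ctrl list and 5.03 in each AID_wash list, and only 64 of 377 members had at least 10 in all 4 lists. In AID_wash replicate 1 the median member stood at 7.56.

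**Figure D1:**
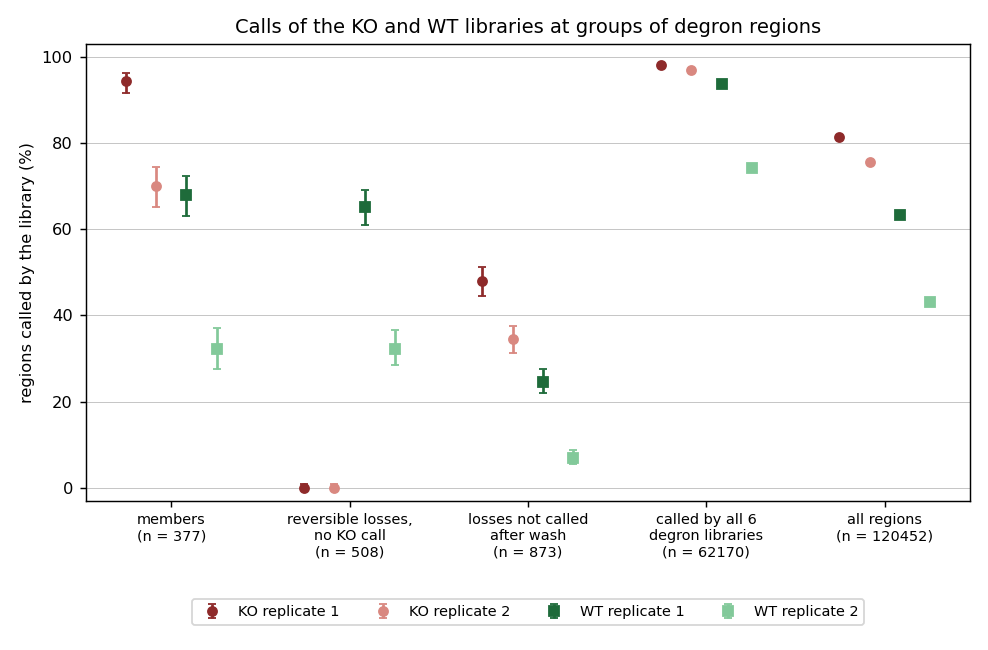
Share of regions called by each KO library (circles) and WT library (squares), in %, for members, reversible losses without a KO call, auxin losses not called after wash, regions called by all 6 degron libraries and all regions. Bars are Wilson 95% intervals over regions. The KO calls of the first 2 groups are fixed by the rule, while their WT calls nearly coincide (67.9% and 32.1% against 65.2% and 32.3%).

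The WT lists give the one readout that the rule left out. At least 1 WT library called 260 of 377 members (69.0%, Wilson 95% interval 64.1 to 73.4), and both called 117 (31.0%, 26.6 to 35.9). Over all regions the shares were 64.4% and 42.1%. WT replicate 1 called 256 members and WT replicate 2 called 121, so the first share rests on replicate 1 and is 32.1% without it. Reversible losses without a KO call had WT calls nearly as often as members, at 66.5% (62.3 to 70.5) for at least 1 library and 30.9% (27 to 35.1) for both. Among auxin losses that neither wash library called, the shares were 25.9% (23.1 to 28.9) and 5.61%, and among regions called by all 6 degron libraries 94.0% and 73.7%. Members and the reversible losses without a KO call thus had WT shares with overlapping intervals, both above those of the losses that stayed without a call after wash. The last contrast is not matched for strength, since those losses had median AID_ctrl percentiles of 15.1 and 13.0 against 35.1 and 33.8 in members. Within the lowest decile of AID_ctrl rank, which is described next, 23% of the 684 such losses and 49.5% of the 111 members had a WT call, and in decile 2 33.1% of 154 and 65.2% of 92. The intervals cover counting error over regions only, and no test over samples was run.

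WT calls were more frequent at stronger AID_ctrl peaks in most deciles of each group, so the shares were also weighted to the members' ranks. A region's percentile is the place of its best peak by −log10 p within one list, with 100 the strongest, and deciles were cut on the mean over the AID_ctrl lists among all 77121 regions called in both. Weighted to the deciles of the members, regions called by all 6 degron libraries had a WT call in 77.2% of cases and reversible losses without a KO call in 61.7%, against 69.0% of members. For calls in both WT libraries the values were 34.2%, 24.6% and 31.0%. The share with a call by at least 1 KO library was weighted to the deciles of the reversible losses. It was 95.9% of regions called by all 6 degron libraries and 90.5% of those called in both AID_ctrl libraries, against 42.6% of the reversible losses.

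Across all regions a call in WT went with a call in KO, and among the reversible losses pooled over peak strength the KO share differed little with the WT calls. Of all regions, at least 1 KO library called 58.9% of those without a WT call, 90.9% of those with 1 and 98.4% of those with 2. Of the 885 reversible losses, KO called 117 of 287 without a WT call (40.8%, 35.2 to 46.5), 143 of 324 with 1 (44.1%, 38.8 to 49.6) and 117 of 274 with both (42.7%, 37.0 to 48.6). Calls by both KO libraries were at 24.7%, 27.8% and 29.9% in the same order, against 41.4%, 83.6% and 97.2% of all regions. Within each of deciles 1 to 6 of AID_ctrl rank, members had a WT call more often than the reversible losses without a KO call, at 49.5% against 44.9% in decile 1 and 86.4% against 80.2% in decile 4, so the pooled shares also carry the fall of KO calls with rank described next. Among the 274 with both WT calls, 157 regions (57.3%) had no KO call, a pattern that 828 of all regions (0.687%) had, or 1.63% of those called by both WT libraries. The KO calls that define these shares are part of the rule, so the contrast is a description of the lists.

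**Figure D2:**
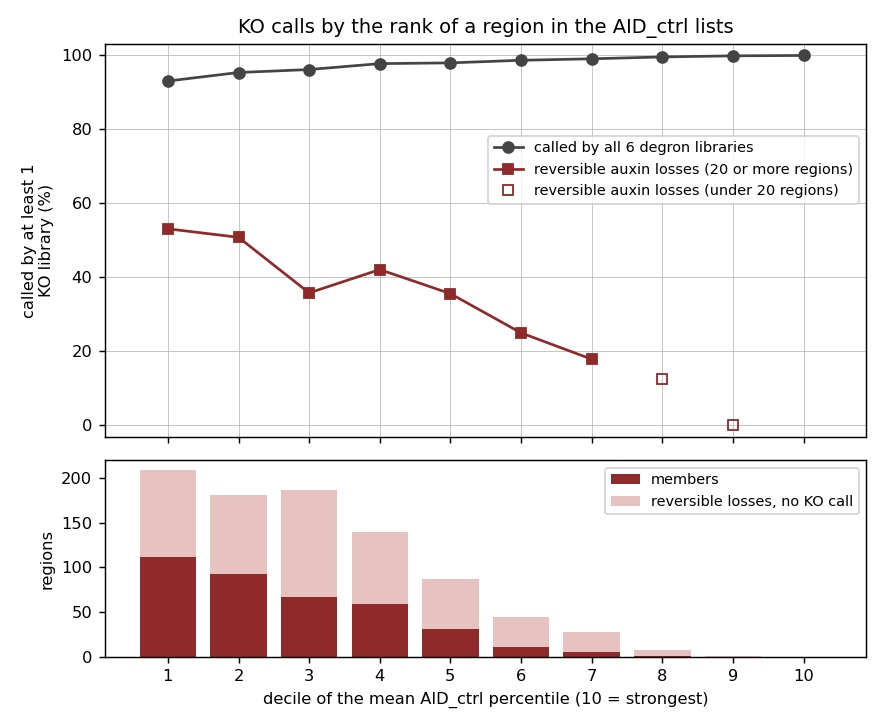
Upper panel: share of regions called by at least 1 KO library, in %, against the decile of the mean AID_ctrl percentile (10 = strongest), for regions called by all 6 degron libraries and for reversible losses. Lower panel: numbers of members and of reversible losses without a KO call. The KO share was 93.0% or more in each decile for the former and 53.1% to 17.9% for reversible losses in deciles 1 to 7.

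Members were most frequent among weak AID_ctrl peaks, as were auxin losses in general, of which the lowest decile held 1453 of 2729. The lowest decile held 111 members, the next 92, then 67, 59, 31, 11, 5 and 1, with 0 in deciles 9 and 10. The share of reversible losses with a KO call was 53.1% in the lowest decile, 50.8% in the next, then 35.8%, 42.1%, 35.6%, 25% and 17.9% (5 of 28) up to decile 7. Regions called by all 6 degron libraries went the other way, from 93.0% to 99.9%. Of the 181 reversible losses in the top 50% of both AID_ctrl lists, 53 (29.3%) had a KO call, and of these 53 members both KO libraries called 32. At least 1 WT library called 50 of the 53, and neither called the other 3. Over the whole series 46761 regions were as strong by this limit. WT calls were absent from 121, 60 and 548 of them, with 0, 1 and 2 KO calls. Both KO and both WT libraries called 39901 of the 46761, and 24 of the 53 members. By calls from both KO and both WT libraries, the strong members were thus not called more often than open regions above the same limit. A call by at least 1 KO library is fixed by the rule for members, so it cannot be compared. Ranks above the limit were not matched.

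The members' fold enrichment ranged from 2.16 to 14.2 in AID_ctrl replicate 1 (median 5.12) and from 2.27 to 14.1 in replicate 2 (median 5.29). In AID_wash it ranged from 2.06 to 12.9 (median 4.63) and from 1.81 to 13.9 (median 4.81). Regions called by all 6 degron libraries had medians of 8.66 and 8.71 in AID_ctrl and 7.99 and 8.45 in AID_wash, and the reversible losses without a KO call 5.48, 5.52, 5.03 and 4.85. Members were shorter, at a median of 630 bp (161 to 1535), than the reversible losses without a KO call (744 bp) and the regions called by all 6 (1119 bp). Auxin losses not called after wash were shorter still, at 393 bp. Length follows from how many peaks were joined and how strong they were, and was not tested apart from rank.

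**Figure D3:**
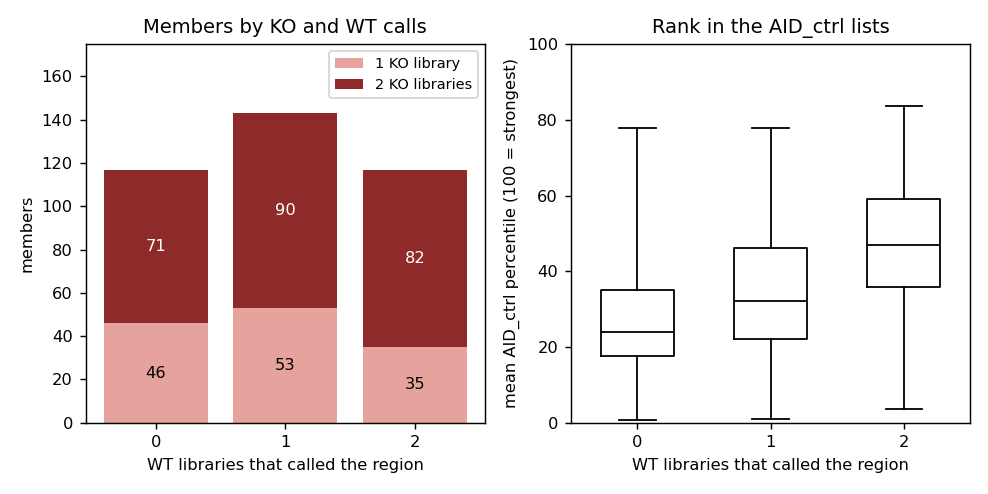
Left: number of members by the number of WT libraries that called them, divided by whether 1 or both KO libraries did. Right: mean AID_ctrl percentile of the same members (line, median; box, quartiles; whiskers, lowest and highest). Members called by both WT libraries had a median percentile of 47.0, and those called by neither 23.9.

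The members fell into several kinds by their KO and WT calls. Both KO and both WT libraries called 82 (21.8%), which were therefore called in all libraries except the 2 with auxin. Among all regions with a KO call 49.5% had calls from both KO and both WT libraries. Their median AID_ctrl percentile was 45.7 and their median length 734 bp. RETNLB, CDX2, KCTD16 and ARHGAP29 are the nearest genes of some of them. Another 71 (18.8%) were called by both KO and neither WT library, the pattern of a gain in the knockout. Of all regions 14.8% had it, and of those with a KO call, which every member has by the rule, 17.9%, close to the members' share. The 71 were weaker and shorter than the 82, with a median percentile of 23.9 and a length of 449 bp. PARD3, SMOC2, APOB and TCF7L2 each had 1 of these. Both KO libraries and 1 WT library called 90 members. The other members had a single KO call, 46 of them with no WT call, 53 with 1 and 35 with both.

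Most KO windows were centred near the degron summits. From the summit of AID_ctrl replicate 1 to the centre of the nearest window the median distance was 45.0 bp in KO replicate 1 and 50 bp in KO replicate 2, and 53.0 and 56.0 bp in the WT libraries. The summit lay within 250 bp of a KO window centre, the reach of a window, in 357 of 377 members (94.7%), and in 87.1% of regions called by all 6 degron libraries, whose median distances to KO windows were 96 and 97 bp. Members are shorter than those regions and had to overlap a KO window, which by itself brings window and summit close. Summits of AID_ctrl replicate 2 were at a median of 20 bp from those of replicate 1, and AID_wash summits at 22 and 23 bp. The KO windows of the remaining 20 members were centred farther from the summit.

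**Figure D4:**
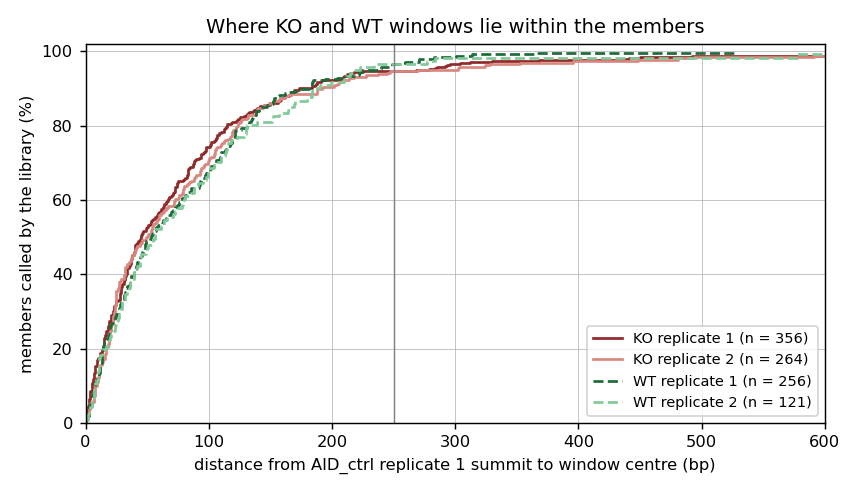
Cumulative share of members, in %, against the distance in bp from the AID_ctrl replicate 1 summit to the nearest window centre of each KO (solid) and WT (dashed) library, for the members that library called. The grey line marks 250 bp. The medians lie between 45.0 and 56.0 bp in the 4 libraries.

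The 20 members with the highest mean percentile over the AID_ctrl and AID_wash lists are described next. The midpoint was inside a protein-coding gene in 13, and 4 had no such gene within 100000 bp. None was within 1000 bp of a gene end. Over all regions these shares were 52.2%, 12.3% and 13.2%, and 20 regions are too few to set them apart from these. Both KO libraries called 11, KO replicate 1 alone 8 and KO replicate 2 alone 1, and both WT libraries called 15. Of regions called by all 6 degron libraries, both KO libraries called 96.8% and both WT libraries 73.7%. Those regions had median AID_ctrl percentiles of 74.9 and 74.0, and the 20 members a median of 69.8 over both lists. The gene table gives no exons, so an intron could not be told from an exon, and the gene nearest to a region need not be its target.

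The strongest member (chromosome 12, 64655742 to 64657114) lay inside RASSF3, a gene of the Ras-association domain family. Its fold enrichment was 9.24 and 7.53 in AID_ctrl and 7.98 and 7.74 in AID_wash. KO replicate 1 and both WT libraries called it, and an AID_aux peak of replicate 1 stood 246 bp away. The second (chromosome 3, 142315105 to 142316605), inside the gene of the 5′ to 3′ exoribonuclease XRN1, had 10.2 and 10.4 in AID_ctrl and 12.9 and 13.9 in AID_wash. It was called by replicate 1 of KO and of WT, with no AID_aux peak within 34315 bp. Unlike the RASSF3 region it stood apart from other open chromatin.

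A member inside SLC24A2 (chromosome 9, 19740345 to 19741478), a sodium, calcium and potassium exchanger gene, had 12.5 and 12.8 in AID_ctrl and 10.1 and 11.5 in AID_wash, and was called by KO replicate 1 and both WT libraries. SOS1, which encodes an exchange factor that activates RAS, held one of the highest values. Its stronger member (chromosome 2, 39032200 to 39033183) had 12.8 and 14.1 in AID_ctrl and 7.82 and 8.63 in AID_wash, and was called by KO replicate 1 and both WT libraries. A weaker SOS1 member (39119839 to 39120037), with 2.42 and 2.4 in AID_ctrl and 2.26 and 2.28 in AID_wash, was called by both KO and neither WT library. The members of this gene thus differed both in strength and in which unedited or knockout libraries called them.

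The region inside KCTD16 (chromosome 5, 144189627 to 144190564), a gene for an auxiliary subunit of GABA-B receptors, was the highest-ranked member called by both KO libraries. It had 9.94 and 7.87 in AID_ctrl and 11.5 and 8.82 in AID_wash, and both WT libraries called it. The same calls were seen inside ARHGAP42 and near ARHGAP29. The ARHGAP42 region (chromosome 11, 100808853 to 100809982) had 7.23, 8.67, 8.92 and 9.26 in the 4 lists in the order used above. The ARHGAP29 region (chromosome 1, 94326366 to 94326644), 11913 bp from the gene, had 3.94, 4.33, 5.30 and 4.22 and was only 279 bp long. Both had AID_aux peaks close by, at 126 and 119 bp.

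The member inside RNF103-CHMP3 (chromosome 2, 86671042 to 86672118), a read-through gene, was the only one of the 20 without a WT call, and KO replicate 2 alone called it. Its fold enrichment was 14.2 and 12.1 in AID_ctrl and 7.15 and 8.97 in AID_wash. Other members of the 20 lay inside DLG2, a synaptic scaffold gene, TPRG1, PKIB, which encodes an inhibitor of protein kinase A, the urea transporter gene SLC14A2, the galanin receptor gene GALR1 and IKBKB, which encodes a kinase that activates NF-kB, and near SUCO and DDX6, an RNA helicase gene. Their fold enrichment lay between 3.49 (IKBKB, AID_wash replicate 1) and 11.9 (TPRG1, AID_wash replicate 2). All of these except DLG2, which KO replicate 1 alone called, were called by both KO and both WT libraries.

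**Figure D5:**
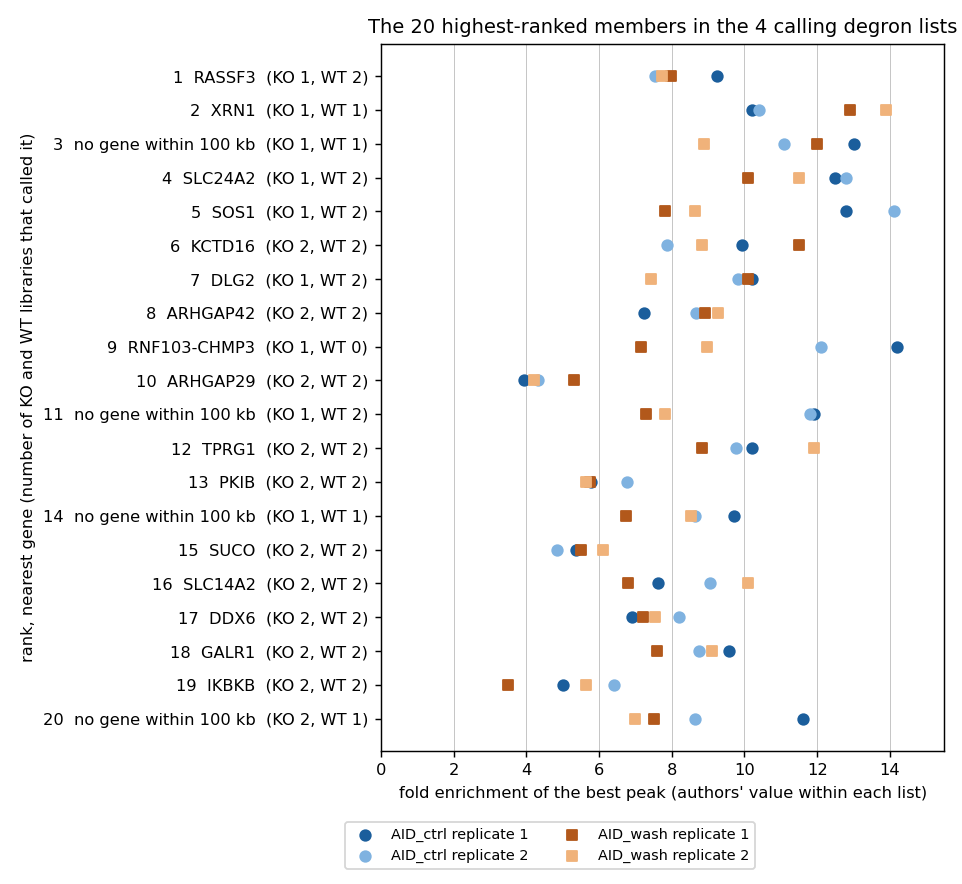
Fold enrichment of the best peak, the authors' value within each list, in the AID_ctrl (circles) and AID_wash (squares) lists for the 20 highest-ranked members, with the nearest protein-coding gene and the number of KO and WT libraries that called the region. The lists were scaled separately, so distances between symbols are not changes in accessibility. Values run from 3.49 to 14.2.

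Members were spread over many genes. Of the 377, 312 had a protein-coding gene within 100000 bp, and these were 310 different genes. SOS1 and THRB, the gene of thyroid hormone receptor beta, had 2 members each and the other 308 had 1. SOS1 had 8 regions in all, of which 3 were called by all 6 degron libraries, and both of its auxin losses were members. THRB had 31 regions, 14 of them called by all 6, and 3 auxin losses. Its members were called by both KO libraries, with 1 WT call between them. No member had another within 10000 bp, 12 had one within 100000 bp, the smallest gap was 27979 bp and the median gap to the next member was 2413233 bp.

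The 16 gene lists together hold 284 different genes, all found in the gene table, and 11 of their 2875 regions were members (0.383%), beside 312 of 105640 regions with any gene (0.295%). Members occurred in 8 lists, at counts too small to set any list apart. Both KO libraries called 8 of the 11, and neither WT library called 5. Over all members these shares were 64.5% and 31.0%, and over all regions 74.3% and 35.6%, so 11 regions show nothing particular to the lists. Among the GATA and gut endoderm factors 1 of 258 regions was a member. It lay 3974 bp from CDX2 (chromosome 13, 27956588 to 27957299), the homeobox regulator of intestinal identity, with 2.97 and 3.19 in AID_ctrl, 2.94 and 3.36 in AID_wash and calls in both KO and both WT libraries. Among epithelial cell markers 2 of 139 regions were members, those at CDX2 and LGALS4.

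In the WNT pathway and stem cell list 2 of 279 regions were members. One lay inside TCF7L2 (chromosome 10, 112965350 to 112965980), the partner of beta-catenin on DNA, and was among the weakest, with 3.19 and 3.50 in AID_ctrl and 3.47 and 2.90 in AID_wash. The other lay inside SMOC2 (chromosome 6, 168541047 to 168542013), a matrix protein gene and stem cell marker, with 6.30 and 4.54, then 3.91 and 4.12. Both KO libraries and neither WT library called each of them. They thus had the calls of a knockout gain while they lost their call with auxin.

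The cell junction and polarity list had 2 members in 296 regions, inside the polarity gene PARD3 (4.75 and 6.51 in AID_ctrl) and 5908 bp from F11R (4.63 and 4.80), which encodes the junction protein JAM-A. In the EGFR, RAS and MAPK list the 2 members in 272 regions were those of SOS1. Of 246 regions of the Hippo list 1 was a member, inside the kinase gene STK3 (6.04 and 6.92), and of 215 regions of chromatin and looping factors 1, inside the histone methyltransferase gene KMT2C (4.55 and 3.83). The enterocyte, goblet and enteroendocrine list had 1 in 111, 26688 bp from APOB (4.02 and 5.29), the main protein of lipoproteins that carry fat from the gut. The lists of the BMP and TGF-beta pathway, AP-1 factors, matrix adhesion, epithelial-mesenchymal transition, aryl hydrocarbon receptor, housekeeping and cell cycle, blood and immune cells, and fibroblast and endothelial cells had 0 members in 331, 106, 231, 125, 78, 94, 76 and 120 regions. At the background rate each of these lists would hold 1 member or fewer, so the counts of 0 show no absence.

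Members lay away from gene ends. Within 1000 bp of either end of a protein-coding gene were 16 of 377 (4.24%, 2.63 to 6.78), against 13.2% of all regions, 20.4% of those called by all 6 degron libraries, 2.56% (1.5 to 4.33) of reversible losses without a KO call and 4.24% of losses not called after wash. Weighted to the members' AID_ctrl deciles the share among regions called by all 6 was 8.93%. The midpoint was inside a protein-coding gene in 198 members (52.5%), near the 52.2% of all regions. No such gene lay within 100000 bp of 65 members (17.2%, 13.8 to 21.4), against 12.3% of all regions. The share was 19.1% of reversible losses without a KO call and 15.0% of losses not called after wash. The nearest start site was at a median of 29188 bp, against 18086 bp for regions called by all 6 and 22797 bp for all regions. The median was 31604 bp for reversible losses without a KO call and 30564 bp for losses not called after wash. Distance from genes and start sites was thus not particular to the members. The nearest region called by all 6 was at a median of 8296 bp, and 37 members (9.81%) had one within 1000 bp, against 17.7% of the reversible losses without a KO call. By chromosome the share of regions that were members ran from 0.118% on chromosome 22 (3 of 2550) to 0.512% on chromosome 13 (15 of 2927).

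For the whole series, the lists held 154150 to 198493 peaks in the degron line, 116231 and 130311 in KO and 65939 and 92814 in WT, and covered 56.7 to 70.2 Mb, 58.1 and 65.2 Mb, and 33.0 and 46.4 Mb. KO lists were longer than WT lists, and the KO and WT files give no score with which to equalise them, so ease of calling and more open chromatin cannot be told apart. Of the 14 epithelial markers 6 had an entry in the promoter table, and each library called 5 or 6 of these promoters. The AID_aux libraries and KO replicate 1 lacked the one of LGALS4. Among blood and immune markers 2 to 5 of 9 promoters were called per library, and among fibroblast and endothelial markers 1 to 3 of 5.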

How the data were processed

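ATAC-seq of 50000 viable cells per library by the Omni-ATAC method, with 150-nt paired reads per the labels' protocols, gave 1 peak list per library. The submitters' processing notes name Bowtie2 2.4.2 and the hg38 build, with Trim Galore 0.6.10, MACS2 2.1.1 and Picard. Settings, the transposase offset and blacklists were not given in the sources used here. Each of the 6 degron lists deposited by the authors gives per summit a score (10 times the −log10 p, held at a maximum), a fold enrichment ratio and, as −log10, a p-value and a q-value. The deposited WT and KO lists hold 500 bp windows without values. Depth is unknown.

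Intervals on the autosomes and X were joined and calls made with Python 3.11.15, numpy 2.4.6 and pandas 2.3.3, and the code was tested on simulated lists. No test over samples was run, since the calls chose the members and the WT and KO lists hold no values. Counts and shares with Wilson 95% intervals (scipy 1.17.1) are given. Regions were assigned to the protein-coding gene nearest to their midpoint within 100000 bp (RefSeq, GRCh38.p14). Named regions were the 20 with the highest mean percentile, those at list genes and genes with most members. Members in a promoter window were named as well, which the plan did not list. The members and gene lists were chosen with earlier results of these data known. A planned motif share over all members was replaced by the promoter windows, since no genome sequence was used. Alternatives are in the closing section.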

Additional observations from a re-analysis of the deposited data

How the results depend on the processing

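The number of members was 617 with degron lists of equal length, 243 when both KO libraries had to call, and 53 when limited to the top 50% in each AID_ctrl list. Leaving out 1 library gave 264 to 1867. The share of reversible losses with a KO call was 57.7% with degron peaks of −log10 p of at least 10, 52.3% with equal lists, 27.5% with both KO libraries and 29.3% in the top 50%, and 29.8% to 68.9% with a library left out. The share of members with a WT call was 75.4% when peaks had to cover at least 50% of a region, 90.9% with −log10 p of at least 10, 78.4% with equal lists, 94.3% in the top 50%, and 32.1% to 71.7% with a library left out. The share near a gene end was 10.3% within 3000 bp, against 19.4% of all regions and 26.2% of those called by all 6 degron libraries. It was 7.68% of reversible losses without a KO call at that distance. Within 1000 bp the members' share was 3.65% to 6.64% with a library left out. Requiring a KO or WT window centre within 250 bp of the summit, chosen after the data were examined, gave 357 members. The cause of these shifts was not tested, except that leaving out a degron library or raising the number of KO calls changes the rule itself. The motif alternatives (200 bp windows, region midpoints, AGATAA and TGATAA only) were not run, since the share over all members was not computed. No paired analysis was possible because the results come from no test.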
